A study of Mus musculus with 90 samples.

Results

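Among the livers of 49 female Diversity Outbred mice given zileuton, the 16 with the highest and the 16 with the lowest expression of Mki67 and Top2a were set against each other. They are called proliferative and quiet livers here, and the 17 zileuton livers between them are called middle livers. The members were selected on measured values: each animal was scored by the mean of log2(value + 1) of Mki67 and Top2a in the authors' table of counts divided by size factors. Both genes were left out of every test, and the scores of the groups are a description. The series holds 90 livers, 1 library per animal: 49 from animals dosed by mouth with zileuton at 300 mg per kg on each of 7 days, and 41 from animals dosed with sterile distilled water (vehicle). Zileuton is an inhibitor of 5-lipoxygenase, an enzyme of leukotriene synthesis. Diversity Outbred mice are an outbred stock in which every animal carries its own mosaic of inbred founder genomes, so no animal repeats the genotype of another. All animals were female, entered the study at 6 to 20 weeks of age, and gave 25 mg of liver, and the labels do not give the age of each animal. The series title names liver toxicity of zileuton as its subject.

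Hepatocytes of an adult liver seldom divide. When they do, genes of DNA replication are transcribed as a cell enters S phase, and a later wave of genes, under the DREAM and MuvB complexes with the transcription factors B-Myb and FoxM1, is transcribed for mitosis. Mki67 encodes a protein that coats mitotic chromosomes and Top2a a topoisomerase that untangles sister chromatids, and both transcripts are rare in cells at rest. Compounds that activate the nuclear receptors CAR or PPARalpha are known to induce drug-metabolising or peroxisomal genes and to start hepatocyte division in rodents. In whole liver RNA, a larger number of dividing cells and more RNA per dividing cell cannot be told apart, and neither can the cell type that divides.

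The score ran between 6.93 and 9.46 with a median of 7.54 in proliferative livers, between 4.41 and 5.62 with a median of 5.33 in quiet livers, and between 3.40 and 8.01 with a median of 4.66 in vehicle livers. The members just inside the upper limit and just outside it had scores of 6.932 and 6.926, and those at the lower limit 5.618 and 5.637, so the groups are ranges of a continuous measure and not separate clusters. Of the vehicle livers, 2 scored at or above the lowest proliferative liver and 37 at or below the highest quiet liver. Of those 37, 15 lay below the lowest quiet liver. The score from Mki67 alone would have chosen 16 of the same proliferative and 14 of the same quiet livers, and that from Top2a alone 15 and 16.

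**Figure D1:**
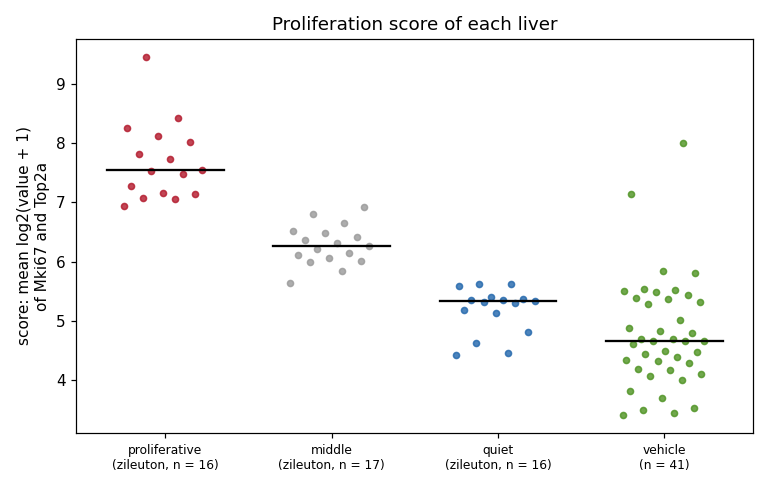
Score of each liver, the mean log2(value + 1) of Mki67 and Top2a, by group. Points are animals and bars are group medians (7.54 in proliferative, 5.33 in quiet and 4.66 in vehicle livers), and the 2 highest vehicle livers reach into the range of the proliferative group.

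Libraries held 12664579 to 41360187 estimated counts. The 10 marker lists of liver cell types were read first, and the hepatocyte markers summed to 6879 to 8827 CPM (counts scaled to a common library size) in proliferative livers, 6824 to 8418 CPM in quiet livers and 6341 to 9885 CPM in vehicle livers. Some libraries stood apart. Zileuton replicate 24, a proliferative liver, and vehicle replicate 8 held skeletal muscle transcripts, such as Mylpf at 93.6 and 166.5 CPM, against at most 0.806 and 0.751 CPM in the other zileuton and vehicle libraries. Among animals labelled vehicle, replicates 37 and 15 had the highest summed level of CAR and PXR target genes, 59920 and 40570 CPM against a quiet zileuton median of 37880 CPM and a vehicle median of 23950 CPM. Replicate 15 was also the vehicle liver of highest score. Animal numbers fall into 8 runs of 50 consecutive numbers, whose meaning the labels do not give. Run 3 held 0 proliferative and 6 quiet livers, and runs 3 and 4 together held 11 of the 16 quiet livers and 4 of the 16 proliferative ones. The spread of the 2 groups over the runs gave p = 0.066 (two-sided, chi-square with 100000 permutations of the labels, added after seeing the data), and p = 0.017 with 12 against 12 animals. Library total, animal number, position within a run, plate row, plate column, clock gene score and coat colour did not differ past the threshold (7 permutation or Fisher's exact tests, two-sided, lowest adjusted p = 0.80).

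Most genes of mitosis had several-fold higher levels in proliferative than in quiet livers. Of 92 genes listed for mitosis and the spindle, 87 passed the filter on low counts, and 86 of these had a fold change above 1, with a median log2 fold change of 2.08 against 0.00 over all 13761 genes tested. Summed over the list, the level was 185 to 848 CPM with a median of 226 CPM in proliferative livers, 77.6 to 140 CPM with a median of 111 CPM in quiet livers, and 80.5 to 368 CPM with a median of 100.1 CPM in vehicle livers. The summed levels of proliferative and quiet livers did not overlap, and zileuton replicate 7 was the highest. Since these genes belong to the same phase of the cell cycle as Mki67 and Top2a, their values in this comparison are a description, and nothing is read from how many passed the threshold used for other genes (75 of 87, against 1.41% of all genes in that direction).

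The largest folds of the mitosis list were those of Ccnb1 (cyclin B1, which with Cdk1 drives entry into mitosis), Ckap2 and Hmmr (both microtubule-binding proteins of the spindle). Ccnb1 (GRCm38 chromosome 13, 100778739 to 100786486, the build of all positions given) ran between 1.21 and 19.8 CPM with a median of 2.30 CPM in proliferative livers, between 0.0448 and 0.725 CPM with a median of 0.250 CPM in quiet livers, and between 0 and 5.66 CPM with a median of 0.115 CPM in vehicle livers. Proliferative and quiet livers did not overlap for Ccnb1, and the fold was 11.6. Ckap2 and Hmmr had log2 fold changes of 3.47 ± 0.47 and 3.28 ± 0.39 (SE). Foxm1, the transcription factor of the mitotic wave, had a median of 2.53 CPM in proliferative livers, 0.636 CPM in quiet livers and 0.542 CPM in vehicle livers, again with no overlap between proliferative and quiet livers. The promoter windows of the 3 genes of largest fold are shown because this list moved together. They are RefSeq windows on GRCm38.p6, 300 bases long and mostly upstream of the gene's start, and capitals mark each match of TTTGAA (the core of a cell cycle homology region) or CCAAT (the NF-Y element) on either strand.
Ccnb1, chr13:100786437-100786736, minus strand: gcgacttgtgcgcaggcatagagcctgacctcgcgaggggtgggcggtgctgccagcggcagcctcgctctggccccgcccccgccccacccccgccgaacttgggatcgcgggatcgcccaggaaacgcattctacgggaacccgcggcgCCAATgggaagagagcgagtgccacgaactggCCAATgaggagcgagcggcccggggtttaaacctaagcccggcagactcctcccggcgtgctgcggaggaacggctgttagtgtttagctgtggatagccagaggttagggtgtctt
Ckap2, chr8:22185770-22186069, minus strand: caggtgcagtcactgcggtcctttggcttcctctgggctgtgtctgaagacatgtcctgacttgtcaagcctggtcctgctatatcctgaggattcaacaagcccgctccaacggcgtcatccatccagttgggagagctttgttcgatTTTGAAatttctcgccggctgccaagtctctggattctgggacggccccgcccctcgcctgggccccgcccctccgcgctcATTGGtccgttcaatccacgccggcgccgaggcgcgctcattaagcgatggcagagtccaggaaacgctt
Hmmr, chr11:40733388-40733687, minus strand: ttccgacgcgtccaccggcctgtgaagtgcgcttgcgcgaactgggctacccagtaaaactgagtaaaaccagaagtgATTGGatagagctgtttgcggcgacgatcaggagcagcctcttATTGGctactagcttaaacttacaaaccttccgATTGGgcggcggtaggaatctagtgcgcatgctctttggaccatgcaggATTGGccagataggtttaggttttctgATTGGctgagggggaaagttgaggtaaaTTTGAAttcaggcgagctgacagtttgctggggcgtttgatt

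In the Ccnb1 window both capitalised stretches are CCAAT, in the Ckap2 window 1 match of each element stands, and the Hmmr window holds 5 CCAAT elements and 1 TTTGAA. Over the mitosis list, 78 of 92 genes had a window. Of their 86 windows, 60.5% held TTTGAA, 70.9% held CCAAT and 47.7% held both, compared with 17.9%, 37.4% and 6.95% of all 32851 windows of this length. The windows of the DNA replication list held TTTGAA in 15.9% and CCAAT in 50.8% of 63 cases. A match is a run of letters and not a binding site shown in these livers.

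The abundant members of the mitosis list had folds below the list's median. The 6 with the highest mean level were Spc24, Cks2, Smc4, Ccnf, Pttg1 and Cenpm. Cks2, a subunit of cyclin-dependent kinases, had medians of 10.3 CPM in proliferative livers, 10.5 CPM in quiet livers and 12.1 CPM in vehicle livers. Smc4, of the condensin complex that packs chromosomes, had medians of 11.4, 8.52 and 7.07 CPM in those groups, a fold of 1.48. Ccnf and Cenpm had log2 fold changes of 0.25 ± 0.20 and 0.36 ± 0.20 (SE). Pttg1 (securin, which holds sister chromatids together until anaphase) had 4.01 CPM at the median in proliferative livers, 1.56 CPM in quiet livers and 1.72 CPM in vehicle livers, and its highest values in these groups were 18.4, 14.7 and 16.3 CPM.

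Genes of DNA replication and S phase had smaller folds than mitotic genes. All 70 listed genes were in the table and 63 passed the filter, with a median log2 fold change of 0.55, 60 above 0 and, again as a description, 31 past the threshold. Large folds were those of Esco2 (an acetyltransferase that ties sister chromatids during replication) and Uhrf1 (which carries DNA methylation through replication), at 9.22 and 4.96. Uhrf1 ran between 0.907 and 8.38 CPM in proliferative livers and between 0.134 and 0.850 CPM in quiet livers, which did not overlap. Pcna, the sliding clamp of DNA polymerases, was at 14.9 to 30.4 CPM in proliferative livers and 14.1 to 19.5 CPM in quiet livers. Other abundant members had folds near 1. Tk1, a thymidine kinase, had medians of 28.97 CPM in proliferative livers and 28.4 CPM in quiet livers, and Mcm10 had a log2 fold change of -0.23 ± 0.26 (SE). Whether the lists differ was not tested.

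**Figure D2:**
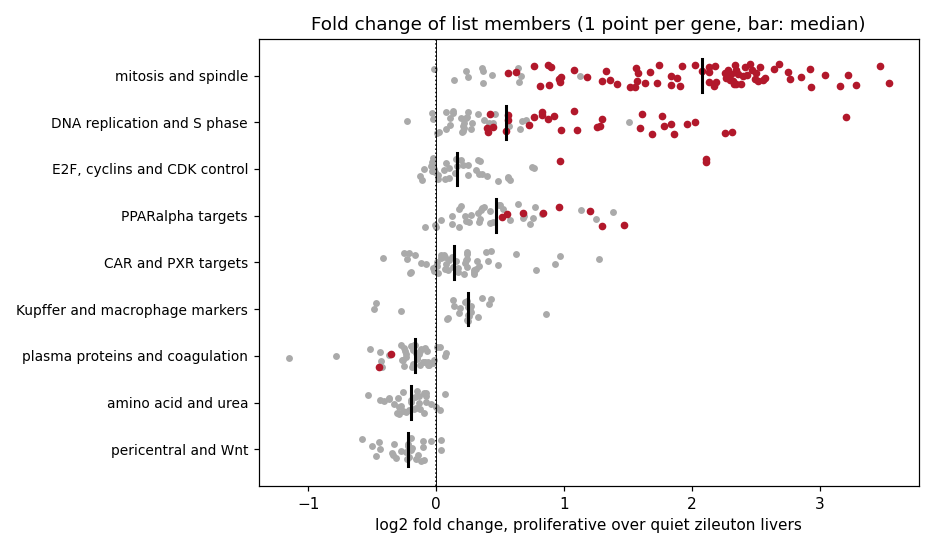
Log2 fold change of proliferative over quiet zileuton livers for the tested members of 9 lists, with 1 point per gene, a bar at each list's median and red points for genes with an adjusted p under 0.05. The mitosis list has its median at 2.08, the replication list at 0.55 and the PPARalpha target list at 0.47, while the median of all genes tested is at 0.00 (dotted).

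Outside these proliferation lists, 124 genes passed the threshold, 88 of them higher and 36 lower in proliferative livers (edgeR quasi-likelihood test, adjusted p under 0.05 over 13761 genes). They include cell cycle control genes such as Pkmyt1 and Mxd3, whose rise is a description too, since Mki67 and Top2a chose the groups. Which others follow the cell cycle was not tested. Over all genes tested, 230 passed (1.67%), 194 higher (1.41%) and 36 lower (0.262%). None of the 36 lower genes reached a 2-fold change, and the largest fall was 0.87 on the log2 scale. With run as a term, 91 genes passed (0.661%), 91 higher and 0 lower, while 964 genes had an unadjusted p under 0.05. Of those 91, 71 were in the proliferation lists. All 124 genes outside the lists kept their direction with run as a term, and 19 of them kept the call. The same libraries gave the 124 calls, so the shared direction is not a separate test. Runs 3, 5 and 7 held only quiet or only proliferative livers, so their libraries do not bear on the group difference in that fit. Without run 3, a choice made after seeing the data, 145 genes were higher and 6 lower. Leaving out single libraries left 19 to 54 lower genes, with 23, 23, 22, 19, 21 and 23 without zileuton replicates 12, 17, 26, 34, 37 and 41.

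Among genes with a mean of at least 1 CPM that rose outside the lists, the 3 of lowest p were Neurl1b, Hmgb2 and C330027C09Rik. Whether these 3 genes follow the cell cycle, as Mki67 and Top2a do, was not tested, so their p-values are a description. Neurl1b (chromosome 17, 26414859 to 26446321), an E3 ubiquitin ligase, was at 1.44 to 8.13 CPM with a median of 2.28 CPM in proliferative livers, at 0.396 to 1.18 CPM with a median of 0.759 CPM in quiet livers and at a median of 0.725 CPM in vehicle livers. The groups of zileuton livers did not overlap for Neurl1b, and its log2 fold change was 1.90 ± 0.22 (SE, edgeR adjusted p = 3.2e-07), or 1.73 with run as a term (adjusted p = 0.0015). Hmgb2, a chromatin protein, had medians of 5.26 CPM in proliferative livers and 2.52 CPM in quiet livers, with a log2 fold change of 1.10 ± 0.15 (SE, edgeR adjusted p = 2.8e-06) and all 16 proliferative livers above the quiet median. C330027C09Rik rose by 1.54 on the log2 scale (edgeR adjusted p = 5.2e-05), and with run as a term it did not pass (1.22, adjusted p = 0.090).

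Of 40 tested genes for E2F factors, cyclins and the control of cyclin-dependent kinases, 3 rose and 0 fell, with a median log2 fold change of 0.16. Of all genes tested 1.41% rose. Rises in this list are a description, as for the mitosis list. Pkmyt1, a kinase that holds Cdk1 inactive, was at 0.670 to 3.74 CPM in proliferative livers and 0.129 to 0.589 CPM in quiet livers (log2 fold change 2.11 ± 0.25, SE, edgeR adjusted p = 5.7e-07). The groups did not overlap for Pkmyt1. Mxd3, a partner of Max, rose by 2.11 ± 0.30 (SE, edgeR adjusted p = 1.2e-05), and both calls held with run as a term (adjusted p = 0.0019 and 0.0026). The other called gene was Ccne1 (cyclin E1), with a log2 fold change of 0.97 (edgeR adjusted p = 0.043, and 1.02 with run as a term, adjusted p = 0.38). It was named after its values were seen. Ccnd1, E2f1 and Myc did not pass the threshold. Ccnd1, the cyclin that starts the cycle in regenerating liver, had medians of 36.5 CPM in proliferative livers, 32.5 CPM in quiet livers and 38.2 CPM in vehicle livers (edgeR adjusted p = 0.36). E2f1 had a log2 fold change of 0.33 ± 0.14 (SE, edgeR adjusted p = 0.28) and Myc one of 0.77 ± 0.27 (SE, edgeR adjusted p = 0.19). Cdkn1a, the inhibitor p21, overlapped widely, with 1.55 to 46.4 CPM in proliferative livers and 0.589 to 24.02 CPM in quiet livers. Of 28 p53 targets and of 37 regeneration signals and receptors, 0 rose, and 0 and 1 fell. Over all genes, 1807 had an unadjusted p under 0.05 with edgeR and 1852 with DESeq2.

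Target genes of PPARalpha, the nuclear receptor that induces peroxisomal and mitochondrial fatty acid oxidation, were the list outside the cell cycle with the most calls among the 39 lists. Of 44 tested members 8 rose and 0 fell, against 1.41% and 0.262% of all genes tested. The list's median log2 fold change was 0.47, with 42 of 44 above 0. Summed over the list, the level was 12590 to 44050 CPM with a median of 27730 CPM in proliferative livers, 11800 to 25320 CPM with a median of 17210 CPM in quiet livers and 10590 to 27740 CPM with a median of 14430 CPM in vehicle livers. The ranges of all groups overlap. The called genes included Ehhadh, Acot1, Acot2, Cyp4a10, Pex11a, Acaa1b and Eci2. All of these but Ehhadh and Acot1 were named after their values were seen.

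Ehhadh, the bifunctional enzyme of peroxisomal beta-oxidation (chromosome 16, 21761285 to 21787834), was at 571 to 4429 CPM with a median of 1504 CPM in proliferative livers, at 253 to 1084 CPM with a median of 774 CPM in quiet livers and at a median of 463 CPM in vehicle livers. Of 16 proliferative livers, 13 lay above the quiet median, and the log2 fold change was 1.30 ± 0.24 (SE, edgeR adjusted p = 0.00064). Acot1, a cytosolic acyl-CoA thioesterase (chromosome 12, 84009502 to 84017670), had medians of 153 CPM in proliferative livers, 56.0 CPM in quiet livers and 33.9 CPM in vehicle livers, with a log2 fold change of 1.47 ± 0.30 (SE, edgeR adjusted p = 0.0025). Acot1 and Acot2 are close copies, as are members of the Cyp2b, Cyp2c, Cyp3a and Cyp4a families, so how reads were divided between such copies is uncertain. Cyp4a10, a fatty acid omega-hydroxylase, had medians of 2337 CPM in proliferative livers and 1153 CPM in quiet livers. With run as a term 0 of 44 PPARalpha targets passed, the list's median was 0.27, and Ehhadh and Acot1 had log2 fold changes of 0.92 and 0.93 (edgeR adjusted p = 0.38 and 0.48). Without run 3 the count was 1. Within the 5 runs that held both groups, the mean log2 CPM of the list was higher in proliferative livers in 5, by 0.15 to 0.51. Runs 1, 2, 6 and 8 held 1 quiet liver each, so their differences each rest on 1 quiet animal. In run 4, with 4 proliferative and 5 quiet livers, the list's difference was 0.19, compared with 1.30 for the mitosis list. The list's median was 20629 CPM in the 2 middle livers of run 3 and 25765 CPM in the other 15, 19084 CPM in its 6 quiet livers and 17208 CPM in the other 10, and 12413 CPM in its 5 vehicle livers and 14866 CPM in the other 36. Leaving out each of the 32 libraries in turn left 5 to 12 calls in the list. Those of Cyp4a10 and Acaa1b were lost in 15 and 5 of the 32 fits.

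**Figure D3:**
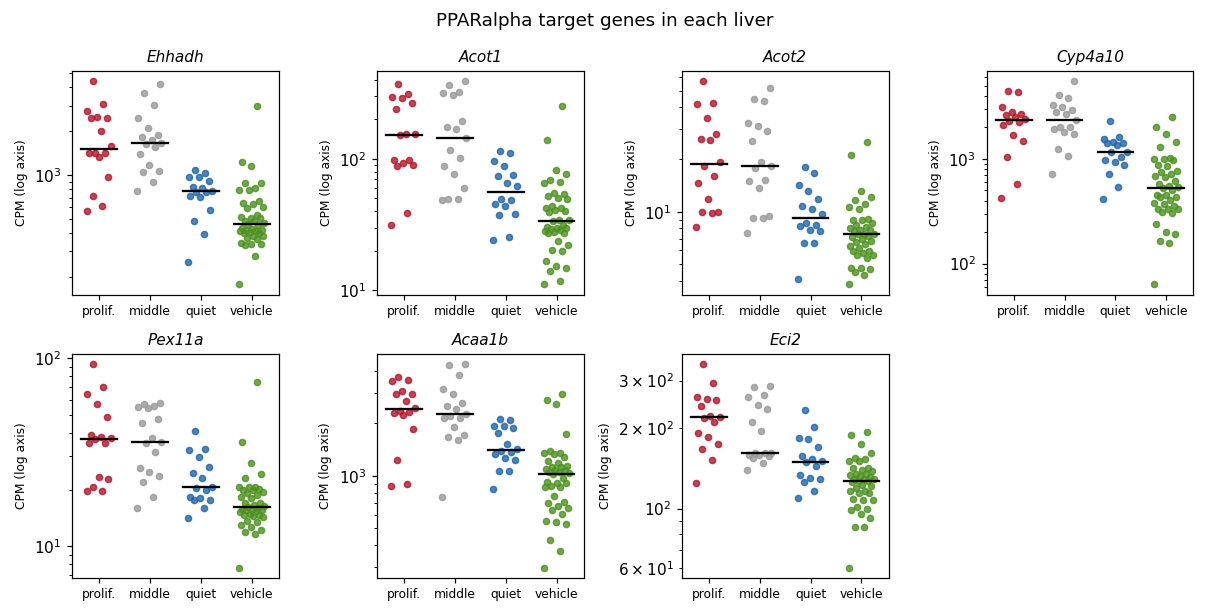
CPM of 7 called PPARalpha targets in each liver on log axes, with bars at group medians. Except for Eci2, proliferative and middle livers have similar medians (1504 and 1660 CPM for Ehhadh), quiet livers have lower ones (774 CPM) and vehicle livers the lowest (463 CPM), and all groups overlap.

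At the median, PPARalpha target levels of middle livers were closer to those of proliferative than of quiet livers, a comparison added after these levels were seen. The list summed to 16790 to 42380 CPM with a median of 25750 CPM in middle livers, against the quiet median of 17210 CPM. Between middle and quiet livers 19 genes passed (0.138% of those tested), all higher, and 5 of them were PPARalpha targets. They included Acot1, Acot2, Cyp4a10 and Ehhadh, with Ehhadh higher by 1.33 on the log2 scale (edgeR adjusted p = 0.0093). Of 87 mitosis genes 2 passed, with a median log2 fold change of 0.64. With run as a term 0 genes passed, by edgeR, and 769 had an unadjusted p under 0.05. Both comparisons share the quiet libraries.

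Calls among CAR, PXR, AhR and NRF2 targets were near the shares of all genes, of which 1.41% rose and 0.262% fell. Lists of this size can therefore hold few or 0 calls without differing from other genes. Of 50 tested CAR and PXR targets, 0 rose and 0 fell, with a median log2 fold change of 0.14 and 38 above 0. Cyp2c29, a cytochrome P450, was at 5208 to 13096 CPM in proliferative livers and 3097 to 16736 CPM in quiet livers, with a log2 fold change of 0.17 ± 0.17 (SE, edgeR adjusted p = 0.72). Cyp3a11 had medians of 5464 CPM in proliferative livers and 4432 CPM in quiet livers. Cyp2b10, the classical CAR target, had medians of 607 and 312 CPM in these groups but a wide spread, and its log2 fold change of 0.93 ± 0.31 (SE) missed the threshold (edgeR adjusted p = 0.14). Of 10 AhR targets 0 passed, with Cyp1a2 at medians of 1329 and 1352 CPM in proliferative and quiet livers. Of 26 NRF2 targets 1 rose, Me1 (malic enzyme, a source of NADPH), at medians of 317 CPM in proliferative livers and 227 CPM in quiet livers (log2 fold change 0.69, edgeR adjusted p = 0.045), and 0.27 with run as a term (adjusted p = 0.88).

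Several genes of differentiated hepatocytes were lower in proliferative livers by 0.30 to 0.44 on the log2 scale. Cebpa, a transcription factor that holds hepatocytes differentiated, was at 179 to 365 CPM with a median of 302 CPM in proliferative livers and at 267 to 510 CPM with a median of 400 CPM in quiet livers. All 16 proliferative livers lay below the quiet median of Cebpa, the vehicle median was 359 CPM, and the log2 fold change was -0.43 ± 0.09 (SE, edgeR adjusted p = 0.0038). Of 44 plasma protein and coagulation genes, Ahsg (fetuin-A) and F7 (coagulation factor VII) fell and 0 rose, with log2 fold changes of -0.44 and -0.35, and 4 of 44 were above 0. Ahsg had medians of 7002 CPM in proliferative livers and 8830 CPM in quiet livers, and F7 medians of 113 and 141 CPM. Of 12 hepatocyte markers, 5 were above 0 and the median was -0.05. The 1 called marker was Asgr2, a subunit of the asialoglycoprotein receptor, which fell by 0.30. Genes of amino acid and urea metabolism had 2 of 33 members above 0 and a median of -0.20. Pericentral and Wnt-dependent genes had 2 of 27 and -0.22. Neither list held a call, where 0.262% of all genes tested fell. Among lower genes with a mean of at least 1 CPM, Chrd, a BMP antagonist, had the lowest p, with medians of 4.22 CPM in proliferative livers and 5.65 CPM in quiet livers. None of these lower calls held with run as a term. The log2 fold changes were then -0.29 for Cebpa, -0.21 for Ahsg, -0.31 for F7, -0.34 for Chrd and -0.26 for Asgr2, with edgeR adjusted p of 0.45, 0.80, 0.28, 0.26 and 0.40. Within the 5 runs with both groups, Cebpa was lower in proliferative livers in 5, with log2 differences between -0.73 and -0.0082. Ahsg and F7 were lower in 4 each, with differences between -0.44 and 0.29 and between -0.48 and 0.12. Runs 1, 2, 6 and 8 held 1 quiet liver each.

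Markers of other cell types did not pass the threshold between proliferative and quiet livers, apart from Mylpf. Over all genes tested 1.41% rose and 0.262% fell, so 0 calls in a short list is near those shares. Of 24 Kupffer cell and macrophage markers 0 passed, with summed levels of 125 to 771 CPM in proliferative livers and 210 to 724 CPM in quiet livers. Their median log2 fold change was 0.25, with 21 of 24 above 0. For 18 endothelial markers the summed levels were 310 to 500.4 CPM and 232 to 509 CPM in these groups, with 0 calls. Of these 18 markers 17 were above 0, with a median log2 fold change of 0.17. Stellate and matrix (23 tested), cholangiocyte (10), T and NK (18), B and plasma cell (9), neutrophil (4) and erythroid markers (8) had 0 calls, and their summed ranges overlapped. In that order 12, 5, 14, 8, 1 and 1 of their members were above 0. None of the listed markers found in the table was at 0 counts in all 32 libraries.

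Among genes with a mean of at least 1 CPM outside the lists, 8 of the 10 with the largest rise rested on 1 library each. Bglap3 had 584 CPM in zileuton replicate 25 and a proliferative median of 0.205 CPM, and Htra3 had 123 CPM in replicate 34. Mylpf, Krt4, H19, Myom1, Ak1 and Tpm2 had their highest value in replicate 24, the liver with muscle transcripts. Without the library of the highest value, 0 of these 8 genes passed, with Bglap3 at an adjusted p of 0.79 and Htra3 at 0.27 (edgeR). Gm10639 was spread over more livers, with medians of 5.79 CPM in proliferative and 0.900 CPM in quiet livers, and lost the call in 19 of 32 fits that left out 1 library.

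Vehicle livers were not used to form the groups, and the slope on the score was fitted in them as well. This score is again made of Mki67 and Top2a, so counts and p-values of cell cycle genes below are a description. Over 41 vehicle livers, 391 genes changed with the score (2.84%), 330 upward (2.40%) and 61 downward (0.443%). Of 87 mitosis genes, 63 rose with the score and 0 fell, with a median slope of 0.65 log2 units per unit of score, and of 63 replication genes 18 rose. These slopes rest in part on the vehicle livers of highest score, replicates 15 and 9. Without replicate 15 the mitosis count was 34 among 180 upward calls, and without both it was 9 among 36, with a median slope of 0.36. Kntc1, a kinetochore protein, rose by 1.21 log2 units per unit of score (edgeR adjusted p = 1.6e-09), and without both livers it still passed (adjusted p = 0.00083). In zileuton livers Kntc1 was at 0.416 to 4.25 CPM in the proliferative group and 0 to 0.364 CPM in the quiet group. Pclaf, which binds PCNA, and Ucp2, a mitochondrial carrier, rose too and passed without both livers (adjusted p = 0.0035 and 0.026, edgeR). Fignl1, an ATPase of recombinational repair, had a slope of 0.84 with all libraries and 0.78 without both, where it did not pass (edgeR adjusted p = 0.069). Ccnb1 had a slope of 1.35 (edgeR adjusted p = 2.7e-10), and 0.64 without both (adjusted p = 0.37). Neurl1b had a slope of 0.53 (edgeR adjusted p = 0.00023), and 0.36 without both (adjusted p = 0.37). Of 44 PPARalpha targets 2 rose, the Ucp2 named above and Ehhadh, and 0 fell. Ehhadh had a slope of 0.42 (edgeR adjusted p = 0.0019), and 0.26 without both (adjusted p = 0.50). Its highest vehicle value, 2965 CPM, and that of the list were in replicate 15. Kupffer cell and macrophage markers also rose with the vehicle score, 10 of 24 with 0 falling, and 0 of 24 passed without both livers. The summed level of these markers was highest in replicate 9, at 1181 CPM against a vehicle median of 351 CPM, and its part in the slopes was not tested.

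**Figure D4:**
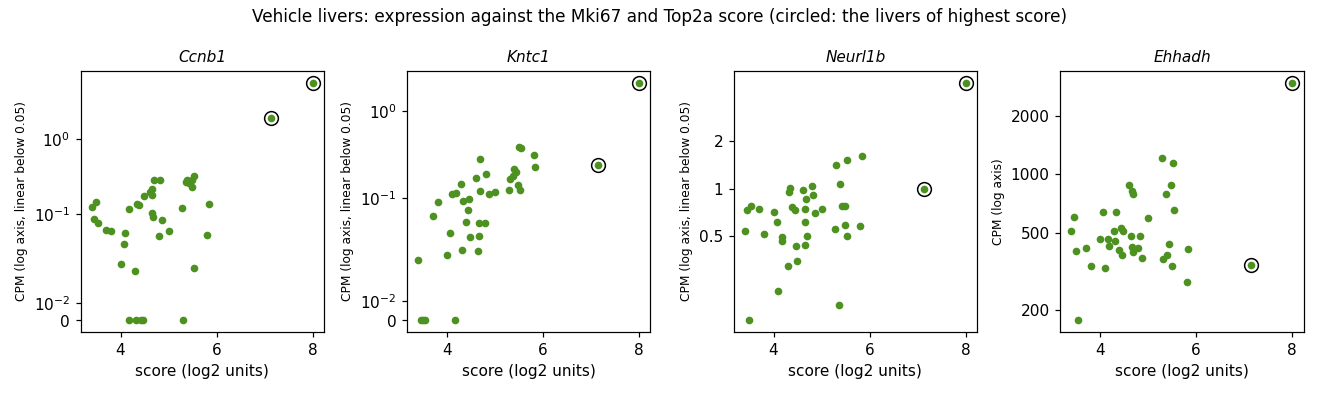
CPM of Ccnb1, Kntc1, Neurl1b and Ehhadh against the score in 41 vehicle livers, with the 2 livers of highest score circled. The circled livers hold the 2 highest Ccnb1 values (up to 5.66 CPM), and for Kntc1 the other 39 livers also slope upward.

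The slope on the score differed between zileuton and vehicle livers for 56 genes (0.407%), 51 with a higher slope in zileuton livers (0.371%) and 5 with a lower one (0.0363%). Among mitosis genes the count was 0 of 87 and among PPARalpha targets 0 of 44. Without vehicle replicate 15, and without replicates 15 and 9, 8 and 9 mitosis genes had a higher slope in zileuton livers. Over all genes tested, 66 and 80 did in these fits. The median slope differences of the mitosis list were 0.27 and 0.32 against 0.13 with all libraries. These mitosis values are a description, since Mki67 and Top2a make the score. In place of 56 genes, 8 passed without the libraries with muscle transcripts.

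Both zileuton groups were set against the 41 vehicle livers in 1 fit, so both comparisons share the vehicle libraries. Within the runs, vehicle animals had positions 13 to 20 and zileuton animals positions 25 to 50. Exposure and the order of animal numbers therefore cannot be told apart in these comparisons. Proliferative livers differed from vehicle for 2807 genes (20.4%), 1362 higher (9.9%) and 1445 lower (10.5%). Quiet livers differed from vehicle for 1116 genes (8.11%), 587 higher (4.27%) and 529 lower (3.84%). CAR and PXR targets were higher in both groups. Against vehicle, 28 of 50 rose and 1 fell in proliferative livers, and 23 of 50 rose and 1 fell in quiet livers. Cyp2c29 was higher than in vehicle by 1.78 ± 0.19 log2 units in proliferative livers and by 1.61 ± 0.19 in quiet livers (SE, edgeR). Of 44 PPARalpha targets, 30 rose and 1 fell in proliferative livers, whereas 4 rose and 2 fell in quiet livers. Ehhadh was higher than in vehicle by 1.66 ± 0.20 log2 units in proliferative livers and by 0.36 ± 0.21 in quiet livers (SE, edgeR), and the difference of quiet livers missed the threshold (adjusted p = 0.31). With run as a term, 30 and 12 PPARalpha targets rose in proliferative and quiet livers, beside 1340 and 619 of all genes tested. Of 87 mitosis genes, 80 passed in proliferative livers and 1 in quiet livers, with medians of 2.24 and 0.15, a description since the score chose the groups. Without vehicle replicates 15 and 37, left out after seeing the data, 15 mitosis genes were higher in quiet livers. In that fit 744 of all genes tested were higher, in place of 587. Plasma protein and coagulation genes fell in 27 of 44 cases in proliferative livers and in 1 of 44 in quiet livers, amino acid and urea genes in 17 and 2 of 33, and genes of the unfolded protein response in 15 and 4 of 27. The direct comparison of proliferative with quiet livers called 2, 0 and 0 genes of these lists lower.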

How the data were processed

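Whole liver RNA of 90 mice was measured by RNA sequencing, with libraries from the TruSeq RNA v2 kit per the labels' protocols, and samples with an RNA integrity number below 8 were left out by the submitters. Per the submitters' processing notes, Partek, STAR and DESeq2 were used with mm10, with no versions listed. What counted the reads, and with which strand setting, is not given in the sources used here, so overlapping genes and near-identical copies are uncertain. The authors deposited estimated counts per gene, of which 76.7% were whole, and a second table of normalized signal values, which equals the rounded counts divided by 1 size factor per library. Both units were checked over all 18223 gene columns. No mitochondrially encoded gene is in the tables.

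Counts were rounded and tested with edgeR 4.0.16 (quasi-likelihood F test, robust, TMM scaling, filterByExpr over the 4 groups, 13761 genes without Mki67 and Top2a), with Benjamini-Hochberg adjustment over all genes and a threshold of 0.05. CPM values use TMM-scaled library sizes. Proliferative livers were fitted against quiet livers in 32 libraries, the score slope in 41 vehicle libraries, the difference of slopes in 90, and each zileuton group against vehicle in 90. The biological coefficient of variation in the 32 libraries was 32.4%. The test was checked on simulated counts. limma 3.58.1 (voom with quality weights), DESeq2 1.42.0, other scalings, filters, scores and covariates, and leaving out each library, were alternatives.

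The members and the gene lists were chosen with earlier results of these data known. Named genes outside the proliferation lists were those of largest fold or lowest p among called genes, the top called or the most abundant member of each list, and a fixed set of regulators. For the proliferation lists they were the most abundant members and those of largest fold, and exceptions are stated where they occur. Some genes that these rules name are not reported here. Animals were numbered by accession order, and each p-value measures the spread between animals. Intervals and standard errors do not cover differences in RNA handling.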

Additional observations from a re-analysis of the deposited data

Results flagged for a closer look

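For 12 named genes the slope on the proliferation score differed between zileuton and vehicle livers (edgeR quasi-likelihood test of the difference, adjusted p under 0.05). Values are the slope in zileuton livers minus that in vehicle livers, in log2 units per unit of score. Of these, 7 were high in 2 libraries with muscle transcripts: Mylpf (4.04), H19 (4.399), Myom1 (2.93), Ak1 (3.17), Tpm2 (1.93), Ankrd23 (2.13) and Scn4b (2.77). Their highest values were in zileuton replicate 24, a proliferative liver, and in vehicle replicate 8, and without both libraries 0 of the 7 passed.

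Acute phase genes had lower slopes in zileuton livers, namely Orm2 (-1.12), Saa2 (-1.93) and Saa1 (-1.74), as did Isyna1 (-0.61) and Slc36a1 (-0.18). Without zileuton replicate 24 and vehicle replicate 8, Orm2, Saa2, Saa1 and Isyna1 still passed and Slc36a1 did not (adjusted p = 0.18). In vehicle livers Saa1 was highest in replicate 9, at 3681 CPM against a median of 30.5 CPM, and the slopes of Saa1, Saa2 and Orm2 in vehicle livers did not pass without replicates 15 and 9 (adjusted p = 0.81, 0.56 and 0.99). Saa1 and Saa2 are close copies.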

How the results depend on the processing

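No paired analysis was possible because replicate numbers follow accession order and the labels pair no animals. For proliferative against quiet livers, the 230 calls became 360 without the filter on low counts (313 higher, 47 lower), 91 with run as a term and 151 without run 3. Leaving out each of the 32 libraries gave 195 to 262 calls, and 19 to 54 lower ones in place of 36. Other scalings, filters, tools, scores and covariates kept the total within 1.5 times, but the lower calls became 91 with DESeq2, 68 for the slope over 49 animals, 22 with the score from Mki67 alone and 14 with plate row and column as terms. For the vehicle slope, 391 became 734 without the filter (409 upward, 325 downward), 219 with voom, 193 with run as a term, 215 without vehicle replicate 15 and 73 without replicates 15 and 9. The 56 slope differences became 381 without the filter, 2 with voom, 37 with run and 8 without vehicle replicate 8 and zileuton replicate 24. Middle against quiet livers gave 0 calls with run as a term in place of 19. The spread over runs gave a chi-square of 12.2, and 14.2 for 12 against 12 animals (permutation p = 0.017). Without vehicle replicates 15 and 37, quiet against vehicle gave 1404 calls and proliferative against vehicle 3073. The cause was not tested where a value moved, except that fewer libraries entered the fits that left some out. With run as a term, libraries of runs 3, 5 and 7 likewise do not bear on proliferative against quiet livers. Transcripts under 1 CPM rest on few reads.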

Other observations

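Clock genes stood apart from vehicle in both zileuton groups. Of 6 genes of the Bmal1 phase, 5 were lower in proliferative livers and 5 in quiet livers, with median log2 fold changes of -1.10 and -0.97. Of 13 genes of the opposite phase, 9 and 10 were higher, with medians of 0.97 and 1.06. Between proliferative and quiet livers 0 of these 19 genes passed. Both comparisons share the 41 vehicle libraries, and the time at which each liver was taken is not in the labels used here. Of 41 interferon response genes, 13 were lower than in vehicle in proliferative livers, where 10.5% of all genes were lower, and 2 in quiet livers, where 3.84% were. Of 18 T and NK cell markers, 1 was lower in proliferative livers and 4 in quiet livers, beside the same shares.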
